A study of Rattus norvegicus with 10 samples.

Results

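The major urinary protein (Mup) genes of rat chromosome 5 were described in the livers of 5 EHBR and 5 SD rats, all males 5 weeks old. EHBR, the Eisai hyperbilirubinemic rat, is a mutant line with a defective Abcc2, the canalicular pump that moves conjugated bilirubin into bile, and SD (Sprague-Dawley) is the outbred stock used as its control. The labels give no treatment, and breeding, housing and pairing of the animals are not stated, so p-values measure only the spread between these samples. Poly(A) RNA was sequenced with a directional library kit. An entry was taken as a Mup gene if its symbol in the deposited TPM table was Mup with a number, or LOC259244, and it lay on chromosome 5, and it was kept if it reached 1 TPM (a level per transcript length, scaled to the same total in every sample) in at least 5 of the 10 samples. This gave 4 entries, of which 3 were kept, among 11083 kept genes of 32883 in the tables. The kept entries are Mup5, LOC259244 and Mup4, and a second entry that also carries the symbol Mup4 was not kept.

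Major urinary proteins, called alpha-2u-globulins in the rat, are small secreted lipocalins whose barrel-shaped fold holds odorants and pheromones. In the rat they are made chiefly in the liver of males from puberty on, pass through the blood into the urine and there act as scent signals. Androgen, glucocorticoid, thyroid hormone, insulin and the male pattern of growth hormone release are known to raise their hepatic output, and estrogen to lower it. The genes arose by repeated duplication and are near-identical, so short reads cannot be divided among the copies with certainty.

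In the deposited files (build rn6) all 4 entries lie on the minus strand of chromosome 5 and are annotated as protein coding. LOC259244 (ENSRNOG00000009273) spans 77245143 to 77492013, the kept Mup4 entry (ENSRNOG00000033130) spans 77404914 to 77408363, and Mup5 (ENSRNOG00000050595) spans 77405142 to 77903113. The second Mup4 entry (ENSRNOG00000050499) spans 77313357 to 77433854. These gene models overlap one another, and together they cover 658.0 kb that holds 35 annotated genes, 9 of them protein coding and 26 unprocessed pseudogenes.

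The 250 bases before the annotated start of 3 RefSeq genes with the kept entries' names or ID are shown because the copies moved together in these livers. They come from the RefSeq promoter table of build GRCr8, another build than that of the files, where Mup4 and Mup5 were matched by symbol and LOC259244 by its gene ID, which RefSeq names Mup4l4. Since 2 entries of the files carry the symbol Mup4, the RefSeq Mup4 promoter could not be tied to the kept one, and the order of Mup4 and LOC259244 along the chromosome differs between the builds. All 3 lie on the minus strand, LOC259244 at chr5:79707808-79708057, Mup4 at chr5:79759497-79759746 and Mup5 at chr5:79999696-79999945. Capitals mark TTGCNNAA, a C/EBP-like motif, and TATAAA, the TATA box.
LOC259244: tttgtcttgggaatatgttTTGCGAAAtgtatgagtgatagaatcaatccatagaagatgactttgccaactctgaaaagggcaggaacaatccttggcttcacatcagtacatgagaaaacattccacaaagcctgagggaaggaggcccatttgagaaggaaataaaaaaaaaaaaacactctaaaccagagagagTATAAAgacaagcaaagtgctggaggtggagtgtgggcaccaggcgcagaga
Mup4: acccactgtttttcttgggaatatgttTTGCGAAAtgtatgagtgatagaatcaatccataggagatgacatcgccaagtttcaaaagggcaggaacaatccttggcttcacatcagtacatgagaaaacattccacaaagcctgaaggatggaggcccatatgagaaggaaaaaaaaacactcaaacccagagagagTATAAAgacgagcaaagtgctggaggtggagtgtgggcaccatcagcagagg
Mup5: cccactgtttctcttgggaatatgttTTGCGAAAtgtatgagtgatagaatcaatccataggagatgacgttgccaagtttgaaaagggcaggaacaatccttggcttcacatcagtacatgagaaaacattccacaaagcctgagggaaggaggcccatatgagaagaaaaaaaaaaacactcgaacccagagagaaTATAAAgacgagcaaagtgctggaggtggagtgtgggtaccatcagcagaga

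The 3 stretches were close to identical, with 225 of 242 aligned bases shared by LOC259244 and Mup4, 229 of 243 by LOC259244 and Mup5, and 238 of 249 by Mup4 and Mup5. Their longest common run was 63 bases and began 175 bases before the start in LOC259244, 167 in Mup4 and 168 in Mup5. TATAAA stood 52 to 47 bases before the start in all 3. TTGCGAAA, the match to TTGCNNAA, began 231 bases before the start in LOC259244, 223 in Mup4 and 224 in Mup5. The wider-spaced STAT motif, with 4 bases between TTC and GAA, matched only in Mup4, as TTCTTGGGAA from 239 to 230 bases before the start. TTCNNNGAA, the usual STAT5 spacing, and AGAACA, one arm of the glucocorticoid response element, had no match in these windows. Among 33469 promoters searched over the same 250 bases on both strands, TATAAA occurred in 12.9%, TTGCNNAA in 9.22%, the wider STAT motif in 6.25%, TTCNNNGAA in 7.67% and AGAACA in 17.5%. A match is a description of letters and not of binding.

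The libraries held 13.8 to 17.6 M assigned reads in EHBR and 15.6 to 19.6 M in SD. Abcc2 was at 10.1 to 17.6 TPM in EHBR and 59.98 to 270.6 TPM in SD, with no overlap. Numbers 4 and 5 of each strain formed a set apart from numbers 1 to 3, a division that the labels do not explain and that was known from earlier results of these data. Within SD, 35.7% of kept genes were lower in numbers 4 and 5 than in 1 to 3, and within EHBR 1.27% were higher. These shares cover only the direction that the Mup genes took in each strain. Genes moved the other way too, such as Ppara within EHBR (-1.66, adjusted p = 0.0132, limma) and Rbp4 within SD (0.41, adjusted p = 0.00686, limma), both named after their values were seen. The summed TPM of 8 hepatocyte markers was 138500 to 159600 in EHBR and 123600 to 152000 in SD. Most of it was Alb, with means of 110300 TPM in EHBR and 90150 TPM in SD, and 1 of the 8, Asgr1, was called between strains. Within SD the sum was 123600 to 126000 in numbers 4 and 5 against 138400 to 152000 in 1 to 3. The strain comparison is therefore given over all samples and within each set of numbers. In bulk liver, fewer cells of a type and less RNA per cell cannot be told apart.

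The Mup genes were far lower in EHBR liver. Mup5, the most abundant entry, was at 8.82, 7.60, 7.25, 41.7 and 66.5 TPM in EHBR samples 1 to 5, and at 1773, 1974, 1856, 475.9 and 479.9 TPM in SD samples 1 to 5. The lowest SD sample thus lay well above the highest EHBR sample, and within each strain numbers 4 and 5 stood apart. The means were 26.4 ± 26.8 TPM in EHBR and 1312 ± 764.4 TPM in SD (SD, n = 5 each), 49.7-fold lower in EHBR. On the log2(TPM + 1) scale the difference, EHBR minus SD, was -5.89 (SE 0.67, adjusted p = 0.000597, limma with Benjamini-Hochberg adjustment over all kept genes).

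LOC259244 was at 2.52, 2.21, 3.02, 12.1 and 15.2 TPM in EHBR samples 1 to 5, and at 398.5, 796.9, 603.8, 93.9 and 81.7 TPM in SD samples 1 to 5. Again every EHBR value was below every SD value, and in EHBR the higher values were numbers 4 and 5 while in SD these were the lower ones. The means of 6.998 ± 6.15 TPM in EHBR and 395 ± 313.8 TPM in SD (SD, n = 5 each) differed 56.4-fold, which on the log2 scale was -5.45 (limma, SE 0.71, adjusted p = 0.0013).

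The kept Mup4 entry, the shortest gene model, was at 0.592, 0.480, 0.105, 2.12 and 3.73 TPM in EHBR samples 1 to 5, and at 161.3, 216.8, 189.7, 46.01 and 37.2 TPM in SD samples 1 to 5. It had the lowest level of the kept entries in every sample, and EHBR samples 1 to 3 were under 1 TPM, so it passed the minimum in SD and in EHBR 4 and 5. Its means were 1.41 ± 1.51 TPM in EHBR and 130.2 ± 83.3 TPM in SD (SD, n = 5 each), 92.7-fold lower in EHBR and -5.65 on the log2 scale (limma, SE 0.56, adjusted p = 0.000186). With a pseudocount of 1 the log2 difference understates the change of a gene this low in EHBR. In place of TPM, the deposited FPKM gave -3.56 with an adjusted p of 0.00038 and upper-quartile FPKM gave -11.15 with an adjusted p of 0.0763 (limma), so the size of the Mup4 difference is poorly fixed. Without EHBR replicate 5, the highest EHBR sample, the folds were 158-fold for Mup4 and 80.3-fold for Mup5.

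The second Mup4 entry was at 0 TPM in EHBR samples 1 to 4 and 0.0763 TPM in EHBR 5, and at 2.73, 13.4, 3.23, 0.492 and 0.240 TPM in SD samples 1 to 5. In TPM its strains did not overlap either, but when the minimum was dropped its log2 difference of -1.72 had an adjusted p of 0.151 (limma). In FPKM the strains did overlap, with 0.0493 in EHBR 5 against 0.0347 in SD 4 and 0 in SD 5.

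**Figure D1:**
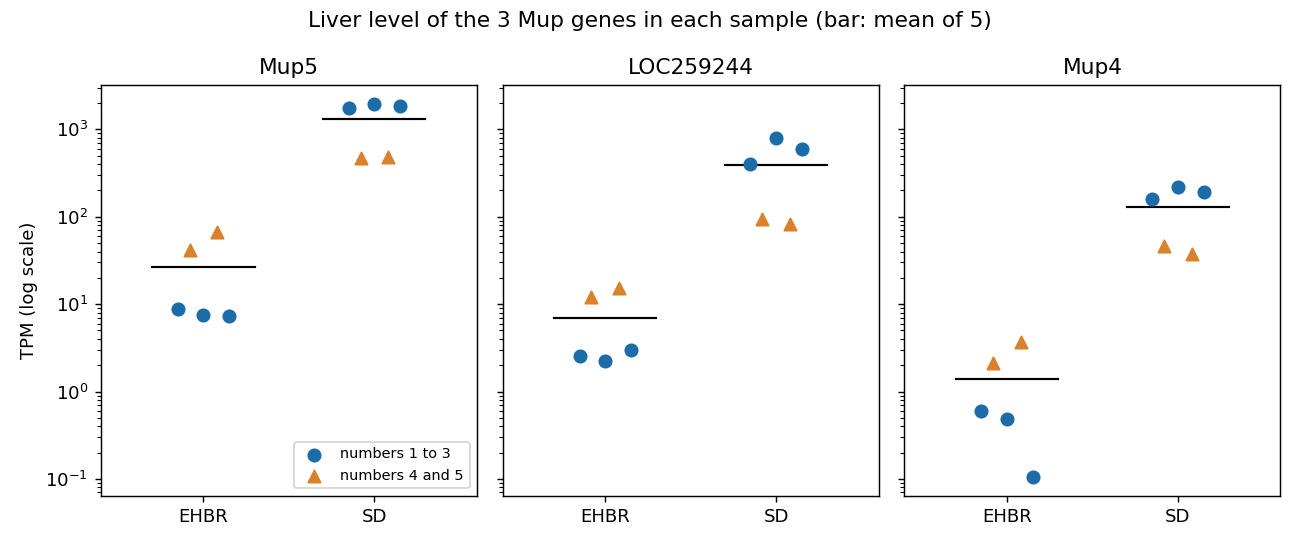
TPM of Mup5, LOC259244 and Mup4 (log axis) in each of the 5 EHBR and 5 SD livers, with circles for numbers 1 to 3, triangles for 4 and 5 and a bar at the mean of 5. EHBR values lie below SD values in every panel, and triangles lie above circles in EHBR and below them in SD.

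The members' differences stood at the far end of all kept genes. Of the 11083, 1.63% were called lower in EHBR and 3.82% higher, 5.45% in all, and in 2.02% all 5 EHBR values were below all 5 SD values. Ordered from the most lower, Mup5 was at rank 4, Mup4 at 5 and LOC259244 at 6. Only 9 genes, 0.0812%, were called lower by more than 5 on the log2 scale, namely AABR07047899.1, Acnat1, AABR07048463.1, Mup5, Mup4, LOC259244, LOC100360095, RT1-N2 and Hamp, of which those outside chromosome 5's Mup entries were named after their values were seen. The median of all kept genes was 0.15 higher in EHBR. Centring each sample on its median brought it to -0.02, changed the all-gene calls to 193 higher and 266 lower, against 423 higher and 181 lower as deposited, and left differences of -6.06 for Mup5, -5.82 for Mup4 and -5.62 for LOC259244.

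Summed over the 4 Mup entries, the level was 11.9, 10.3, 10.4, 55.9 and 85.5 TPM in EHBR samples 1 to 5, and 2335, 3001, 2652, 616.3 and 599.0 TPM in SD samples 1 to 5. From low to high the samples ran EHBR 2, EHBR 3, EHBR 1, EHBR 4, EHBR 5, SD 5, SD 4, SD 1, SD 3 and SD 2, with EHBR 2 and 3 almost equal, as were SD 5 and 4. The mean sum of 34.8 ± 34.4 TPM in EHBR was 52.9-fold lower than the 1841 ± 1150 TPM in SD (SD, n = 5 each), and 83.2-fold lower without EHBR replicate 5. The sum made up 0.00103 to 0.00855% of all TPM in EHBR and 0.0599 to 0.300% in SD.

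Within each set of numbers the Mup genes were also lower in EHBR, but by different amounts. In numbers 1 to 3 the mean sum was 10.9 TPM in EHBR and 2663 TPM in SD, a 245.0-fold difference, and in numbers 4 and 5 it was 70.7 TPM in EHBR and 607.6 TPM in SD, an 8.60-fold difference. In one fit with 4 groups, Mup5 differed by -7.72 (SE 0.15, adjusted p = 5.378e-09, limma) in numbers 1 to 3 and by -3.16 (SE 0.18, adjusted p = 3.244e-05, limma) in numbers 4 and 5. LOC259244 differed by -7.34 (adjusted p = 9.133e-08) in numbers 1 to 3 and by -2.61 (adjusted p = 0.00133) in numbers 4 and 5. Mup4 differed by -7.10 (adjusted p = 7.397e-08) in numbers 1 to 3 and by -3.46 (adjusted p = 0.000115) in numbers 4 and 5. On FPKM the Mup4 values were -4.23 in numbers 1 to 3, where EHBR had 0, 3 and 0 reads, and -2.57 in numbers 4 and 5. Among all kept genes, 2.29% were called lower in EHBR within numbers 1 to 3 and 3.38% within numbers 4 and 5, and 4.84% higher within numbers 1 to 3 and 19.6% within numbers 4 and 5.

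The change of the strain difference between the sets was itself tested in that fit. The division into sets came from earlier results of these data, so the p-values are not those of a grouping planned beforehand. The strain difference was closer to 0 in numbers 4 and 5 by 4.56 for Mup5 (SE 0.24, adjusted p = 6.891e-05), 4.73 for LOC259244 (SE 0.35, adjusted p = 0.000874) and 3.64 for Mup4 (SE 0.31, adjusted p = 0.00147). Of all kept genes, 0.271% passed this test in either direction and 0.208% in this one. On the deposited FPKM, the Mup4 value was 1.66 with an adjusted p of 0.150, whereas Mup5 and LOC259244 still passed. Mup4 lay lower in FPKM than in TPM, and the same pseudocount of 1 was added.

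Both strains took part in that change, in opposite directions. Numbers 4 and 5 against 1 to 3 gave 2.60 for Mup5 (adjusted p = 0.000252), 2.03 for LOC259244 (adjusted p = 0.0049) and 1.48 for Mup4 (adjusted p = 0.0118) within EHBR. The same contrast within SD gave -1.96 for Mup5 (adjusted p = 0.000298), -2.71 for LOC259244 (adjusted p = 0.000404) and -2.16 for Mup4 (adjusted p = 0.000506; -1.25 on FPKM). The rise of Mup4 within EHBR rested on few reads. It was 1.18 with an adjusted p of 0.0614 without EHBR replicate 5, and 0.42 with an adjusted p of 0.498 on FPKM. Being lower in SD 4 and 5 was shared by 35.7% of kept genes, while only 9 genes, 0.0812%, were both lower within SD and higher within EHBR.

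Besides the 3 Mup genes those 9 were LOC100360095, LOC680406, Rup2, Stac3, Gins4 and Pygl, named after their values were seen. Rup2 encodes a rat urinary protein of another family, RefSeq names LOC680406 Rup2l1 and lists Rup-4 as a synonym of LOC100360095, and all 3 lie on chromosome 8. LOC100360095 was at 13.6, 10.8, 11.6, 83.2 and 53.0 TPM in EHBR samples 1 to 5, and at 2185, 1617, 2044, 553.5 and 316.7 TPM in SD samples 1 to 5. As for the Mup genes, EHBR 4 and 5 were the higher EHBR samples and SD 4 and 5 the lower SD samples. LOC680406 was at 928.4 ± 376.9 TPM in EHBR and 4772 ± 957.6 TPM in SD (SD, n = 5 each).

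**Figure D2:**
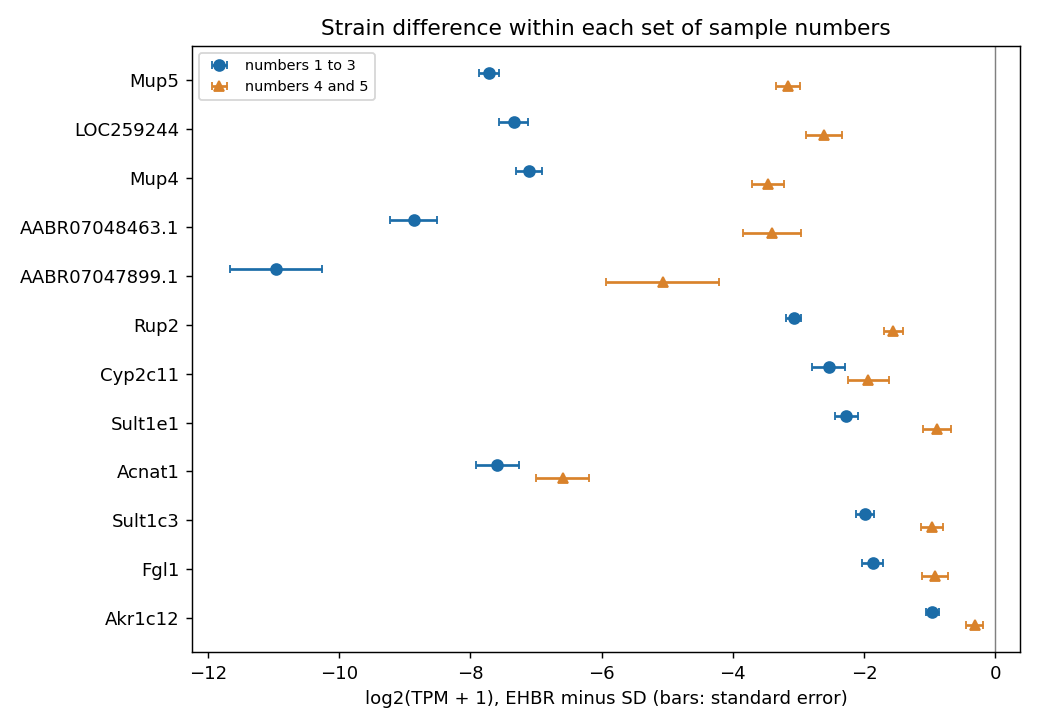
Difference in log2(TPM + 1), EHBR minus SD, within numbers 1 to 3 (circles) and within numbers 4 and 5 (triangles), with bars of 1 standard error, for the Mup genes, 2 other chromosome 5 entries, male-biased genes and the genes most like the Mup sum. Mup5 sits at -7.72 and -3.16, while Acnat1, at most 0.178 TPM in EHBR, sits at -7.59 and -6.59.

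How the family's signal was divided among the entries depended on the deposited unit. In TPM, Mup5 made up 69.8 to 77.8% of the sum in EHBR and 65.8 to 80.1% in SD, LOC259244 17.7 to 29.1% in EHBR and 13.6 to 26.6% in SD, and Mup4 1.01 to 4.96% in EHBR and 6.20 to 7.47% in SD. In FPKM, LOC259244 made up 43.0 to 56.0% in EHBR and 35.3 to 45.7% in SD, and Mup5 44.0 to 54.9% in EHBR and 52.5 to 62.5% in SD. Mup4 held 0 to 3.89% of the FPKM sum in EHBR and 0.848 to 2.34% in SD. So Mup5 led in every sample in TPM but not in FPKM, where LOC259244 was above it in EHBR 1 to 4.

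The median kept gene had 1.55 to 1.64 TPM per FPKM in EHBR and 1.39 to 1.58 in SD. For LOC259244 that ratio was 0.770 to 1.12 in EHBR and 0.712 to 1.10 in SD, and for Mup5 2.72 to 4.97 in EHBR and 2.21 to 2.39 in SD. For Mup4 it was 2.18 to 32.6 in the 3 EHBR samples with a value above 0 in FPKM and 5.24 to 14.7 in SD. The authors' TPM and FPKM therefore did not share 1 assignment of reads to these entries, and no label or header used here names the step behind it. The sum over the 4 entries was less affected, at 52.9-fold lower in EHBR in TPM and 57.2-fold in FPKM, at 245.0-fold in TPM and 298.8-fold in FPKM for numbers 1 to 3, and at 8.60-fold in TPM and 8.84-fold in FPKM for numbers 4 and 5.

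**Figure D3:**
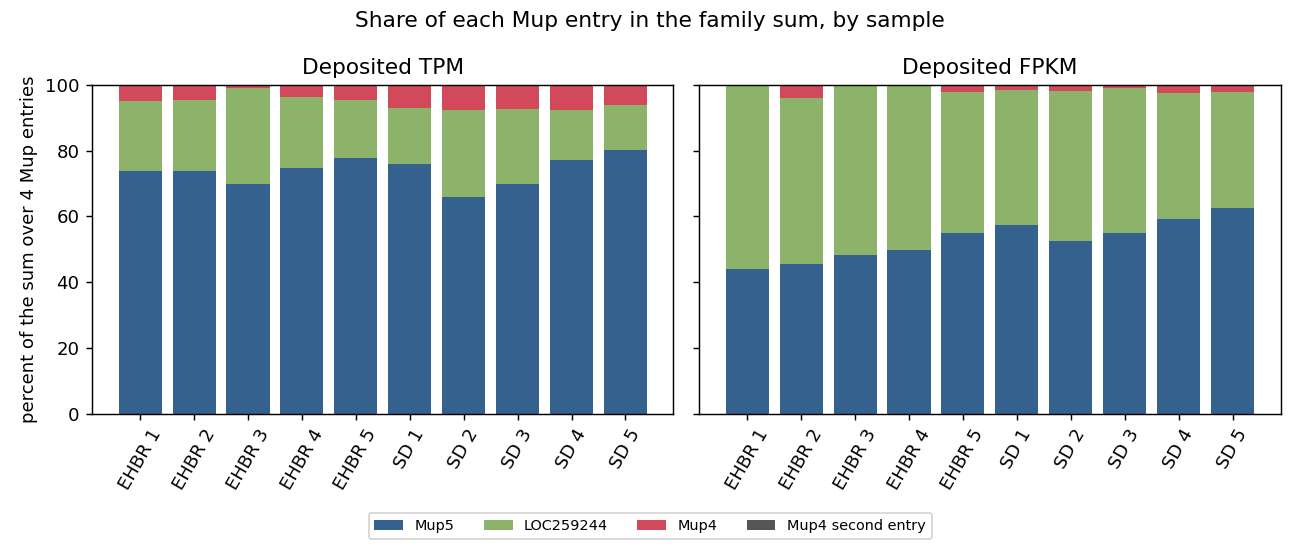
Percent of the summed level of the 4 Mup entries held by each entry, per sample, EHBR left and SD right, in the deposited TPM and in the deposited FPKM. Mup5 holds 65.8 to 80.1% in TPM, while in FPKM LOC259244 holds 35.3 to 56.0%.

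For each entry the fewest whole reads that fit the deposited upper-quartile FPKM were recovered, within 1e-05 reads. Mup5 had 39, 57, 63, 373 and 479 reads in EHBR samples 1 to 5, and 19655, 19125, 18553, 5525 and 5633 reads in SD samples 1 to 5. LOC259244 had 53, 68, 72, 403 and 401 reads in EHBR, and 15030, 17836, 15915, 3816 and 3408 reads in SD. Both entries thus had at least 39 reads in every sample. Mup4 had 0, 3, 0, 1 and 11 reads in EHBR and 287, 405, 176, 134 and 121 reads in SD, so its EHBR level in single samples is poorly fixed and its TPM in EHBR 1 and 3 stands beside 0 reads. The second Mup4 entry had 0, 0, 0, 0 and 1 reads in EHBR and 11, 4, 5, 1 and 0 reads in SD, which leaves its 13.4 TPM in SD 2 on 4 reads in the other unit.

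Most other entries of the cluster had low values in TPM, a unit that depends here on how reads were divided among the copies. Of 34 other chromosome 5 entries that lie inside the Mup span or carry an odorant or pheromone binding term in the files, 17 were at 0 TPM in all samples, 26 stayed under 1 TPM, 7 averaged at least 1 TPM in a strain and 2 passed the minimum. AABR07048463.1 (ENSRNOG00000047613, 77744450 to 77749613, rn6), whose gene ID RefSeq names the pseudogene Mup4-ps6 though the files call it protein coding, lies within the span. It was at 2.85, 0.578, 2.79, 6.08 and 7.74 TPM in EHBR samples 1 to 5, and at 1854, 936.6, 1339, 67.1 and 100.2 TPM in SD samples 1 to 5. In TPM its level was just above that of Mup5 in SD 1 and below it in all other samples, whereas in FPKM it was 1870, 1094 and 1417 in SD 1 to 3, above the 781.4, 831.4 and 838.3 of Mup5. Its strain difference was -6.68 (SE 0.91, adjusted p = 0.0016, limma), with -8.86 in numbers 1 to 3 and -3.40 in numbers 4 and 5.

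AABR07047899.1 (ENSRNOG00000050117, 52653327 to 52767592, rn6) lies outside the span and carries the binding term. It was at 0.387, 0.196, 0.172, 2.47 and 5.46 TPM in EHBR samples 1 to 5, and at 2520, 2815, 2207, 44.9 and 550.4 TPM in SD samples 1 to 5. SD 4 and 5 differed from each other here by far more than for any Mup entry. Its value of -8.61 on the log2 scale (limma, SE 1.03, adjusted p = 0.000745) led all kept genes, and its change between the sets of numbers, 5.90, had an adjusted p of 0.0698.

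The other 5 entries averaging at least 1 TPM in a strain were under the minimum, and some were higher in FPKM. RGD1566134 was at 0 TPM in EHBR and 0.324 to 12.8 TPM in SD, and AABR07048487.2 at 0 to 0.412 TPM in EHBR and 0.519 to 18.5 TPM in SD. AABR07048439.1 and AABR07048475.1 were at 0 TPM in EHBR and in SD 4 and 5, with 8.62 to 25.1 TPM and 2.15 to 6.53 TPM in SD 1 to 3. In FPKM, AABR07048439.1 was at 103.0, 46.04 and 95.7 in SD 1 to 3 and 8.76 and 5.16 in SD 4 and 5, with 181, 74, 148, 17 and 10 reads in SD samples 1 to 5, so its 0 TPM in SD 4 and 5 does not show absence. RGD1566134 had 26.6 FPKM and 376 reads in SD 2, where its TPM was 1.52. AABR07048473.1 was at 0 to 0.165 TPM in EHBR and 0.213 to 6.23 TPM in SD. Over all 35 genes inside the span, the summed level averaged 39.0 ± 37.3 TPM in EHBR and 2716 ± 1850 TPM in SD (SD, n = 5 each).

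Kept genes on either side of the cluster had far smaller differences. Of 31 other kept genes that start within 2 Mb of the span, 0 were called higher (4 at an unadjusted p under 0.05, limma; 3.82% of all kept genes) and 3 lower (1.63% of all), 1 of these 3 being AABR07048463.1 inside the span. The 30 outside ranged from -1.01 to 0.89 on the log2 scale, and the 31 had a median of 0.08, against 0.15 for all kept genes. Snx30, a sorting nexin 87.2 kb from the Mup span, differed by 0.54 (adjusted p = 0.139) and Slc31a2, a copper transport protein 217.5 kb away, by -0.23 (adjusted p = 0.448). Bspry was at 1.98 ± 0.32 TPM in EHBR and 3.76 ± 0.75 TPM in SD (SD, n = 5 each; adjusted p = 0.0179, limma), 431.2 kb away. Rgs3, a regulator of G protein signalling 525.6 kb away, was at 1.75 ± 0.24 TPM in EHBR and 4.93 ± 2.84 TPM in SD (SD, n = 5 each; adjusted p = 0.0292, limma).

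**Figure D4:**
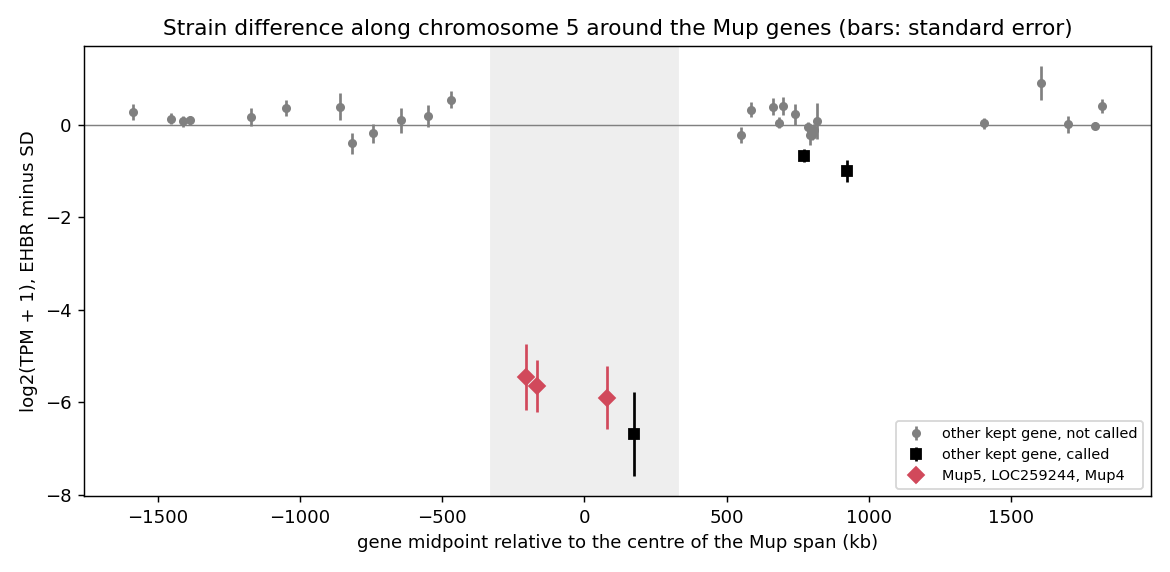
Difference in log2(TPM + 1), EHBR minus SD, with bars of 1 standard error, for kept genes against distance of the gene's midpoint from the centre of the Mup span in kb; the shaded band is the span. The Mup genes and AABR07048463.1 lie below -5, and the genes outside the band lie between -1.01 and 0.89.

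The Mup entries varied together across the livers. Pairwise Pearson correlations of their log2(TPM + 1) over the 10 samples were 0.990 to 0.992, as a description, since these entries overlap, may share reads and differ between the strains. Among 6584 other kept genes with an official symbol and a mean of at least 5 TPM, those most like the log2 Mup sum were Rup2 (r = 0.985), Akr1c12 (0.966), Fgl1 (0.963), Sult1c3 (0.959) and Acnat1 (0.945), over the same 10 samples. All 5 were called lower in EHBR, as were 1.63% of all kept genes. They were picked for likeness to a sum that separates the strains, so this direction largely follows from the choice. Rup2 was at 1493, 1786, 1489, 3682 and 3231 TPM in EHBR samples 1 to 5, and at 13450, 14290, 12320, 11390 and 9003 TPM in SD samples 1 to 5, and thus kept the order of strains and numbers seen for the Mup genes at a much smaller distance. Acnat1, an acyl-CoA:amino acid N-acyltransferase also on chromosome 5, was at 0, 0.166, 0.0728, 0 and 0.178 TPM in EHBR and at 136.2, 252.3, 257.0, 164.7 and 65.3 TPM in SD. Unlike the Mup genes, Acnat1 showed no rise in EHBR 4 and 5, and its change between the sets of numbers, 0.997, had an adjusted p of 0.313. With EHBR values of at most 0.178 TPM, the pseudocount of 1 could hide such a rise, so this contrast is weak.

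Other genes that are higher in male than in female rat liver, as the Mup genes are, had smaller differences over all samples. Of 11 kept members of a list of 15, 4 were called lower and 1 higher, against 1.63% lower and 3.82% higher of all kept genes, with a median of -0.24 against 0.15. Rup2 averaged 2336 ± 1042 TPM in EHBR and 12090 ± 2047 TPM in SD (SD, n = 5 each; log2 -2.47, adjusted p = 0.000392, limma). Cyp2c11, the main male-specific cytochrome P450 of rat liver, averaged 337.7 ± 94.5 TPM in EHBR and 1664 ± 479.9 TPM in SD (SD, n = 5 each; log2 -2.30, adjusted p = 0.000185, limma). Sult1e1, the estrogen sulfotransferase, averaged 826.2 ± 434.1 TPM in EHBR and 2470 ± 451 TPM in SD (SD, n = 5 each; log2 -1.72, adjusted p = 0.00654, limma). The other called members, named after their values were seen, were Cyp4a2 at -4.50 and Akr1b7 at 3.22. Within numbers 1 to 3, 5 members were called lower and 1 higher, beside 2.29% lower and 4.84% higher of all kept genes. Within numbers 4 and 5, 4 were called lower and 2 higher, beside 3.38% lower and 19.6% higher of all kept genes. Hsd3b5, a 3-ketosteroid reductase named after its values were seen, was called in opposite directions (-1.06, adjusted p = 0.030 in numbers 1 to 3; 1.06, adjusted p = 0.0326 in numbers 4 and 5), and the change between the sets had an adjusted p of 0.0628. Rup2 changed between the sets of numbers as the Mup genes did (1.52, adjusted p = 0.012), while Cyp2c11 (0.60, adjusted p = 0.420) and Sult1e1 (1.38, adjusted p = 0.0794) did not pass that test. In size the Sult1e1 change was near that of Rup2. Within EHBR, Sult1e1 was called higher in numbers 4 and 5 (1.31, adjusted p = 0.0119, limma), as were 1.27% of all kept genes. Its contrast within SD did not pass (-0.07, adjusted p = 0.789, limma).

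Of 11 kept members of a list of 13 genes that are higher in female rat liver, 5 were called higher and 0 lower (1 at an unadjusted p under 0.05, limma), against 3.82% higher and 1.63% lower of all kept genes, with a median of 1.04. Within numbers 1 to 3, 6 were called higher, beside 4.84% of all kept genes, and within numbers 4 and 5, 4 were, beside 19.6%. After median centring 1 was called lower. Abcc3, a basolateral efflux pump, averaged 4.29 ± 1.03 TPM in EHBR and 0.574 ± 0.164 TPM in SD (SD, n = 5 each; log2 1.73, adjusted p = 0.00015, limma). Cyp2c7, a female-predominant cytochrome P450, averaged 2108 ± 226.6 TPM in EHBR and 752.6 ± 259.2 TPM in SD (SD, n = 5 each; log2 1.54, adjusted p = 0.00125, limma). Cyp2c12, the female-specific steroid disulfate hydroxylase, averaged 506.8 ± 143.4 TPM in EHBR and 84.2 ± 54.8 TPM in SD (SD, n = 5 each; log2 2.75, adjusted p = 0.0015, limma). The other 2 were Acsl4 at 0.79, named after its value was seen, and Prlr. Over all samples the Mup genes, at -5.89 to -5.45, lay beyond all called genes of both lists, but within numbers 4 and 5 Cyp4a2, at -5.21 (adjusted p = 0.0157), lay beyond the 3 Mup genes, at -3.46 to -2.61, and Cyp2c12, at 3.02, exceeded LOC259244 in size.

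In a list of hormone receptors, Prlr was higher in EHBR over all samples, and whether it acts on the Mup genes was not tested. Of 8 kept members of that list of 10, 1 was called higher and 0 lower (0 at an unadjusted p under 0.05, limma), against 3.82% higher and 1.63% lower of all kept genes. Prlr, the prolactin receptor, averaged 32.2 ± 3.65 TPM in EHBR and 5.30 ± 4.72 TPM in SD (SD, n = 5 each; log2 2.88, adjusted p = 0.0108, limma). The receptors of glucocorticoid (Nr3c1, log2 -0.11), growth hormone (Ghr, -0.06), insulin (Insr, 0.45) and estrogen (Esr1, 0.05) did not pass over all samples, nor did Thra, Thrb and Ppara. Within the sets, and named after their values were seen, Nr3c1 was called lower in numbers 1 to 3 (-0.52, adjusted p = 0.0437) and higher in numbers 4 and 5 (0.50, adjusted p = 0.0483), with a change between the sets of 1.02 that had an adjusted p of 0.0774. Thrb (0.74, adjusted p = 0.022) and Insr (0.80, adjusted p = 0.023) were called higher in numbers 4 and 5, where 19.6% of all kept genes were, and Prlr passed in numbers 1 to 3 (3.59, adjusted p = 0.00877) but not in 4 and 5 (1.83, adjusted p = 0.101), with a change between the sets that did not pass (adjusted p = 0.335). Of 19 kept members of a list of 20 growth hormone signalling genes 0 were called over all samples (1 higher and 1 lower at an unadjusted p under 0.05, limma; 5.45% of all kept genes called), and after median centring 1 was called lower. Within numbers 4 and 5, 5 of the 19 were called higher, beside 19.6% of all kept genes: Stat3 (0.96), Stat5b (0.69), Jak2 (0.65), Hnf4a (0.59) and Cebpa (0.51), named after their values were seen. Its most abundant member, Igf1, averaged 407.6 ± 44.1 TPM in EHBR and 537.9 ± 112.1 TPM in SD (SD, n = 5 each; log2 -0.38, adjusted p = 0.150, limma).

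Among other lipocalins, Lcn2 was higher in EHBR, and among abundant secreted liver proteins Hpx was lower. Of 6 kept members of a list of 15 lipocalins, 1 was called higher and 0 lower (2 higher and 0 lower at an unadjusted p under 0.05, limma), against 3.82% higher and 1.63% lower of all kept genes. The retinol carrier Rbp4 (log2 -0.09), Apom (-0.07) and Ambp (0.03) stayed close to 0. C8g differed by 0.15 (adjusted p = 0.420, limma) and Orm1 by 0.89 (adjusted p = 0.194, limma). Lcn2, an iron-siderophore binding lipocalin, averaged 8.28 ± 2.63 TPM in EHBR and 0.151 ± 0.162 TPM in SD (SD, n = 5 each; log2 2.97, adjusted p = 1.028e-05, limma). Of 13 kept members of a list of 14 abundant secreted hepatocyte genes, 0 were called higher (1 at an unadjusted p under 0.05, limma) and 1 lower, beside the same shares of all kept genes. That gene, Hpx for the heme carrier hemopexin, averaged 4792 ± 326.3 TPM in EHBR and 6862 ± 1080 TPM in SD (SD, n = 5 each; log2 -0.51, adjusted p = 0.0413, limma), and within numbers 4 and 5 its -0.41 did not pass (adjusted p = 0.0778). Within numbers 4 and 5, where 19.6% of all kept genes were called higher, Alb (0.41, adjusted p = 0.0403) and Tf (0.41, adjusted p = 0.0244) were too. Tf was also called higher within numbers 1 to 3 (0.36, adjusted p = 0.0358), where 4.84% of all kept genes were. Both were named after their values were seen.

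Marker sums of other cells were also set beside the strains. Summed TPM of 5 matched sinusoidal endothelial markers was 51.6 to 78.1 in EHBR and 38.8 to 53.8 in SD. These ranges overlapped, though Stab1, Stab2 and Kdr were called higher. The 5 cholangiocyte markers summed to 12.2 to 13.9 TPM in EHBR and 15.2 to 17.5 TPM in SD, with none called. The 4 matched pancreas markers summed to 19.8 to 30.7 TPM in EHBR and 39.8 to 65.6 TPM in SD, with Cela1 called lower and Prss1 and Pnlip at 0. Of these 4, 3 stayed under 1 TPM in every sample, so this sum was nearly all Cela1 and does not speak for the list. The 6 Kupffer cell, 6 stellate cell and 5 lymphocyte marker sums overlapped between strains too, and the 4 kidney markers stayed under 0.2 TPM in sum. The part of these cells in the Mup difference was not tested.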

How the data were processed

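Poly(A) RNA of 5 EHBR and 5 SD livers was sequenced. Per the submitters' processing notes, the tools were Trimmomatic 0.38, FastQC 0.11.7, HISAT2 2.1.0 and featureCounts 1.6.3 with build rn6; their settings, and whether counting used strand, are not given in the sources used here. The authors deposited TPM, FPKM and upper-quartile FPKM for 32883 genes, 1 column per sample, not pooled. Groups and numbers come from the sample titles.

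Strain was tested with limma 3.58.1 (R 4.3.3, trend option, two-sided) on log2(TPM + 1). The 11083 genes reaching 1 TPM in 5 or more samples entered, with Benjamini-Hochberg adjustment over all of them and a threshold of 0.05. One fit with 4 groups (strain by numbers 1 to 3 or 4 and 5) gave the within-set values, the tests of change and those within a strain. In values simulated for 11083 genes, 200 of them changed, the strain test called 82% of those set to a log2 difference of 1, 98% of those at 2 and 100% of those at 4 (9 false calls). The simulated spread was that of the fit with 4 groups, without a difference between the sets of numbers. In the data the strain test carries that difference in its spread, so these shares are likely too high for it. The test between sets called 42% of those at 1, 94% of those at 2 and 100% of those at 4 (3 false calls).

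The members and gene lists were chosen with earlier results of these data known, and list medians and counts are descriptions. Named genes were every kept Mup entry, other cluster entries averaging at least 1 TPM, up to 3 called members of each list by adjusted p (or its most abundant one), the nearest and the called neighbours, and the 5 genes most like the Mup sum. Whole reads were sought as the shortest gene length at which all upper-quartile FPKM values came out whole within 1e-05 reads. Counting intervals were not used, and reads without molecular identifiers are not independent molecules. Promoter letters come from RefSeq (GRCr8); no coordinate was converted. Same-numbered samples of the 2 strains did not correlate in all pairs (0.07 to 0.29), so numbers were not treated as pairs.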

Additional observations from a re-analysis of the deposited data

Results flagged for a closer look

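The strain difference of the Mup genes was not the same in the 2 sets of sample numbers, by a test of the change itself (limma, 4 groups). The log2 difference, EHBR minus SD, was closer to 0 in numbers 4 and 5 than in 1 to 3 by 4.73 for LOC259244, 4.56 for Mup5 and 3.64 for Mup4. The labels do not say what the numbers stand for, and the division into sets came from earlier results of these data.

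The second Mup4 entry was flagged for its highest sample in each strain. In EHBR the gap of sample 5 (0.0763 TPM, with the other 4 samples at 0) to its nearest neighbour was 1 times the whole range, and in SD the gap of sample 2 (13.4 TPM) was 0.772 times the range, against a critical value of 0.71. With the other 4 samples at 0 the EHBR ratio is 1 for any value of sample 5, so that flag carries no information. For normally spread values chance flags about 1 in 20 groups, a rate that need not hold for values this low. These values rest on 1 read in EHBR 5 and 4 reads in SD 2 in the other deposited unit.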

How the results depend on the processing

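Of 361 values recomputed under an alternative, 355 kept their direction and their side of the threshold, or, for counts, stayed within 1.5 times the main count or, for the sum, moved by less than the spread between replicates. Another 4 no longer passed, 2 newly passed and 0 reversed. The 4 were the Mup4 values given with upper-quartile FPKM, with FPKM (2 of the 4) and without EHBR replicate 5, where 2 of the 3 members were called instead of 3. The 2 concern lists under median centring: 1 female-biased gene and 1 growth hormone signalling gene were then called lower. By the same measures 249 of 250 values held when 1 sample at a time was left out, although the count of members called higher within EHBR was 2 in place of 3 without EHBR replicate 5. The strain difference ranged from -6.37 to -5.61 for Mup5, -5.88 to -5.06 for LOC259244 and -6.01 to -5.38 for Mup4, and the log2 ratio of the sums from -6.38 to -5.48. Other alternatives gave -7.00 to -5.53, -6.64 to -4.68 and -11.15 to -3.56 for these genes. The pseudocount of 1 was the same in each deposited unit though their scales differ, so Mup4 values across units are not like for like. Whether the numbers pair the samples is not stated. With the replicate number as a block, the adjusted p (limma) was 0.00675 for Mup5, 0.0107 for LOC259244 and 0.00408 for Mup4, with 639 higher and 222 lower calls over all genes. All-gene calls, 423 higher and 181 lower in the main test, became 307 and 215 on FPKM, 190 and 241 on upper-quartile FPKM, 314 and 290 after quantile normalization, 193 and 266 after centring, 719 and 292 with array weights, 1506 and 372 with a term for the numbers, and 243 to 439 and 135 to 179 without 1 sample. FPKM within the sets of numbers and within a strain, and leaving out samples in the fit with 4 groups, were alternatives chosen after seeing the data. Of the kept entries Mup4 rested on the fewest reads, at least 15 over 5 EHBR samples in the unit from which reads were recovered.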
